A study of Mus musculus with 10 samples.

Results

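Type I interferon stimulated genes were followed in CD4+ splenocytes of septic and sham-operated mice. The set was a list of 41 genes known to be induced by type I interferon, and each gene was read through the probe sets whose annotation gives its symbol and no other. By that rule 38 of the 41 genes had 63 probe sets among the 45101 on the array, 64 of which were controls. Of these, 37 genes had at least 1 of 56 probe sets bright enough to be tested, among 13073 genes tested in all. Ifi204 fell below the filter on dim probe sets, Oas1g and Ifi44 had no such probe set, and Isg15 had only a probe set that carries a further symbol.

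The arrays came from C57Bl/6 mice aged 8 to 12 weeks, 1 array per mouse, with spleens taken 6 h after abdominal surgery under halothane. In 5 mice the cecum was tied off and pierced (cecal ligation and puncture, CLP, a model of sepsis from gut bacteria), and in 5 sham mice it was brought out and handled only. CD4+ cells were enriched by magnetic removal of other cells, to about 91% per the labels, so some RNA came from other splenocytes. Deposited intensities ran from 0 to 20290, and precision is limited by having 5 arrays in each group.

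Type I interferons are cytokines released when cells sense microbial nucleic acids or bacterial products. They bind a shared receptor built of Ifnar1 and Ifnar2, whose kinases Jak1 and Tyk2 activate the transcription factor complex ISGF3, which includes Stat2 and Irf9. ISGF3 binds the interferon-stimulated response element (ISRE) in the promoters of the induced genes, many of which restrict viruses or tune the response itself. In T cells the same signal can restrain or promote division and survival, depending on its timing.

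The ISRE is shown first, since it is the DNA element through which these genes are known to be switched on together. Promoter windows from 250 bases before to 50 after a start site were taken from RefSeq, build GRCm38.p6, and 30 of the 41 genes had at least 1 window. They were searched for GAAANNGAAA on both strands (TTTCNNTTTC on the other), which is the core of the element. A match was found for 15 of these 30 genes, and for 1079 of all 27025 genes with windows (3.99%). The windows of the neighbours Ifit3, Ifit1 and Ifit2, and of Rsad2, Ifih1 and Oasl1, whose values are given further on, read as follows, with the matched bases in capitals.
Ifit3, chr19:34583279-34583578, plus strand: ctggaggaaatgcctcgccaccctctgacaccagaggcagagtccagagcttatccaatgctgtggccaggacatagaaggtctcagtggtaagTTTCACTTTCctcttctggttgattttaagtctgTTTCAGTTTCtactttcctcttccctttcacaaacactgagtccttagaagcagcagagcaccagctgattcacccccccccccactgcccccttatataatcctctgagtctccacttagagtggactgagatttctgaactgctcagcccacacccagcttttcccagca
Ifit1, chr19:34640639-34640938, plus strand: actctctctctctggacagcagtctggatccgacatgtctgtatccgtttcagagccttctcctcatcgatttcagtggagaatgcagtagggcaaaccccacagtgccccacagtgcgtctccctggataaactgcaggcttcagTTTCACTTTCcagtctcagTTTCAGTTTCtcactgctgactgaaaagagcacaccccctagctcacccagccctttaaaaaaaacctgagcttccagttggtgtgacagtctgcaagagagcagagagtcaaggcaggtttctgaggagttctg
Ifit2, chr19:34550444-34550743, plus strand: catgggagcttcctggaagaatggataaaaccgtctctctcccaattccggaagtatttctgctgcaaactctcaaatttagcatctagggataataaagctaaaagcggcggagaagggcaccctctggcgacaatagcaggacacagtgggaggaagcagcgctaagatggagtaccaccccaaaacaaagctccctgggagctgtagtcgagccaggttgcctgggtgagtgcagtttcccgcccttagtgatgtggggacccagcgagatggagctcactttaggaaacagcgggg
Rsad2, chr12:26456403-26456702, minus strand: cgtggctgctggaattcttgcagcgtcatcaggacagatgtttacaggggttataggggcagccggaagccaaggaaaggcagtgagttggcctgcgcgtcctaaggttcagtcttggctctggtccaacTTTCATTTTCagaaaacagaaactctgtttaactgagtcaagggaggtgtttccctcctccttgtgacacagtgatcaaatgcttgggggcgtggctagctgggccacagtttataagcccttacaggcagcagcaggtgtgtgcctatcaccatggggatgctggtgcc
Ifih1, chr2:62646206-62646505, minus strand: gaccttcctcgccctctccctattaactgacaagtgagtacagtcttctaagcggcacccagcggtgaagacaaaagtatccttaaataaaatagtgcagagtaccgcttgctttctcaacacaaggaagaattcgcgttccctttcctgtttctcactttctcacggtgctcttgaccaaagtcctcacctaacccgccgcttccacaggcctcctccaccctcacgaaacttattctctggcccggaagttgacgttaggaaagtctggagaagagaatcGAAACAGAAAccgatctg
Oasl1, chr5:114922990-114923289, plus strand: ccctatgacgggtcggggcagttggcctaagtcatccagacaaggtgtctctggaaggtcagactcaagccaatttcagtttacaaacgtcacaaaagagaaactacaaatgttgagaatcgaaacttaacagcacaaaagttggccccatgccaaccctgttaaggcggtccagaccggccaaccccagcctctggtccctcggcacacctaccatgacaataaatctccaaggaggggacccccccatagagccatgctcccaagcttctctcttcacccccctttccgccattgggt

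Ifit3 and Ifit1 each held 2 matches, TTTCACTTTC and TTTCAGTTTC, which began 156 and 122 bases before the start site in Ifit3 and 104 and 85 bases before it in Ifit1. Rsad2 held TTTCATTTTC at 120 bases before its start. Ifih1 held GAAACAGAAA 32 bases after its start. No match stood in the windows of Ifit2 and Oasl1, which says only that these letters are not in the windows. Ifit2 had 2 windows, of which only 1 is printed above. The 13 tested genes with a match had a median log2 fold change between CLP and sham of 0.33, and the 14 tested genes whose windows had none had a median of 0.34. A second motif, the GAS element TTCNNNGAA of interferon gamma signalling, reads the same on both strands. It was found in 8 of the 30 genes (26.7%) and in 9.55% of all genes with windows.

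The genes were higher in CLP mice in most cases, by small amounts. Signals are log2 of intensities scaled to a common array median, and a fold change is CLP over sham. Of the 37 tested genes 34 had a higher mean in CLP arrays, where 51.2% of all tested genes did, and their median log2 fold change was 0.33 (1.26-fold) against 0.00457 over all tested genes. After adjustment over all probe sets, 2 rose: Ifit3 and Rtp4, both by 1.76-fold. None of the 37 fell, and at an unadjusted p under 0.05 by limma 18 were higher and 0 lower. Among all tested genes 0.199% rose and 0.551% fell by the same rule, and at the unadjusted threshold 3.65% were higher and 8.19% lower. In a mixed sample a change in the number of expressing cells and a change in RNA per cell cannot be told apart.

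**Figure D1:**
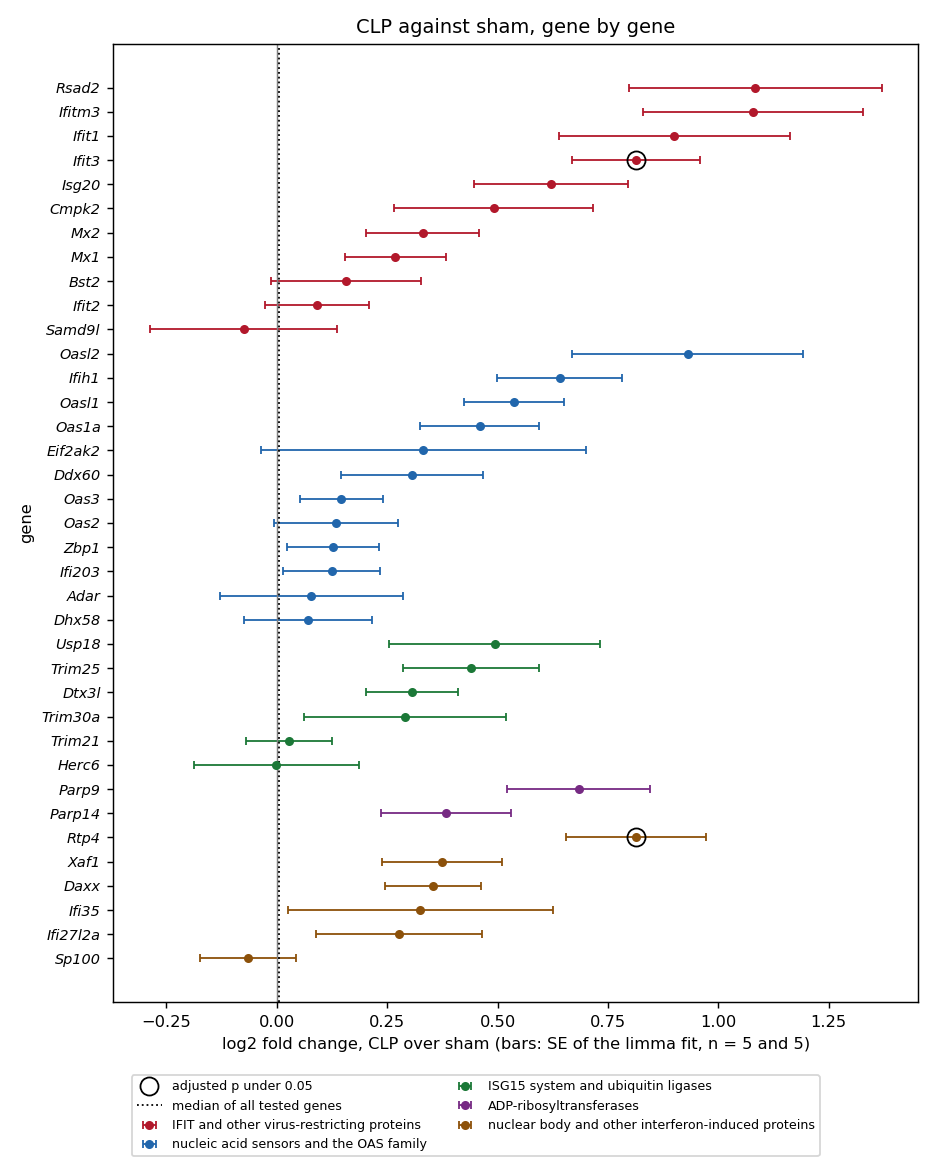
Log2 fold change of CLP over sham for each of the 37 tested genes (horizontal axis, bars are the standard error of the limma fit, 5 arrays per group), coloured by role. Ifit3 and Rtp4, circled, passed the adjusted threshold, and 3 genes, Samd9l, Sp100 and Herc6, lie left of 0.

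Among proteins that restrict viruses directly, 10 of the 11 tested had a higher mean in CLP arrays and the median log2 fold change was 0.49. Ifit3, which binds viral RNA in a complex with other IFIT proteins, rose. Its signals were 8.53, 8.17, 8.44, 8.33 and 8.86 in sham arrays 1 to 5 and 9.36, 9.03, 9.11, 9.28 and 9.62 in CLP arrays 1 to 5. Every CLP array lay above every sham array, and the log2 fold change was 0.81 ± 0.15 (SE, adjusted p = 0.0362 by limma). The call was lost when any of CLP replicates 2, 3 and 5 or sham replicates 1 to 4 was left out, with values between 0.73 and 0.88 in those fits. All CLP arrays stood above all sham arrays in 6 of the 37 genes, and in 0.849% of all tested genes.

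Ifitm3, a membrane protein that blocks viral entry, read 8.09, 7.74, 7.55, 7.49 and 8.07 in sham and 9.61, 9.32, 8.48, 8.24 and 8.68 in CLP arrays. Its groups did not overlap either, but the CLP arrays were spread widely (8.87 ± 0.58, SD, n = 5, against 7.79 ± 0.28). The log2 fold change of 1.08 ± 0.25 did not pass (adjusted p = 0.0806 by limma). Rsad2 (viperin), which makes a chain-terminating nucleotide, read 10.67, 10.06, 9.68, 10.22 and 10.18 in sham and 12.29, 10.90, 10.55, 11.37 and 11.10 in CLP arrays. CLP array 1 stood highest, CLP array 3 lay inside the sham range, and the value of 1.08 ± 0.29 did not pass (adjusted p = 0.12) and became 0.82 without CLP replicate 1. Its neighbour in the genome, Cmpk2, a nucleotide kinase, read 8.35, 9.12, 8.24, 8.74 and 8.31 in sham and 9.34, 9.47, 8.47, 9.26 and 8.68 in CLP arrays, with overlap, a value of 0.49 ± 0.23, and 0.28 with its probe sets averaged.

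The IFIT neighbours differed among themselves. Ifit1, which recognises RNA lacking the host's cap methylation, read 9.44, 9.90, 9.52, 9.90 and 10.43 in sham and 10.65, 10.68, 10.16, 11.65 and 10.55 in CLP arrays. CLP array 4 was highest and sham array 5 lay above CLP array 3, and the value of 0.90 ± 0.26 did not pass (adjusted p = 0.157). Ifit2, which lies beside Ifit3 with no listed gene between them, gave 0.09 ± 0.12 (adjusted p = 0.91), with 10.03 ± 0.17 in sham and 10.12 ± 0.20 in CLP arrays (SD, n = 5). Their difference from each other was not tested.

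Isg20, an exonuclease of viral RNA, read 10.06, 10.34, 9.77, 10.24 and 10.23 in sham and 10.97, 10.84, 10.21, 11.15 and 10.58 in CLP arrays, where only CLP array 3 fell within the sham range (0.62 ± 0.17, adjusted p = 0.142 by limma). The dynamin-like GTPases Mx2 and Mx1 shifted less. Mx2 read 8.24, 7.77, 7.86, 7.61 and 7.74 in sham and 8.04, 8.40, 8.05, 8.07 and 8.30 in CLP arrays, and sham array 1 lay above 3 CLP arrays (0.33 ± 0.13, adjusted p = 0.33). Mx1 read 6.67, 6.82, 6.68, 6.83 and 7.18 in sham and 7.06, 7.11, 6.94, 7.33 and 7.08 in CLP arrays, with sham array 5 above all but CLP array 4 (0.27 ± 0.11, adjusted p = 0.405). Bst2 (tetherin), which holds budding virus at the cell surface, gave 0.16 ± 0.17, and Samd9l, a negative regulator of growth, gave -0.08 ± 0.21. Neither passed.

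Sensors of nucleic acid and the OAS family, whose products activate RNase L, were all 12 higher in CLP arrays on average, between 0.07 and 0.93, and none passed by limma (4 at an unadjusted p under 0.05). Ifih1 (MDA5), a sensor of long double-stranded RNA, read 9.61, 9.67, 9.85, 9.75 and 9.92 in sham and 10.68, 10.56, 9.92, 10.58 and 10.28 in CLP arrays. CLP array 3 was level with the highest sham array to within rounding and the others stood clear above it (0.64 ± 0.14, adjusted p = 0.0676 by limma). The brightest probe sets of the other helicases gave smaller values, Ddx60 0.31 ± 0.16 and Dhx58 (LGP2), which tunes MDA5, 0.07 ± 0.14. A second probe set of Dhx58 gave 0.35 ± 0.14 (adjusted p = 0.365 by limma), and their average 0.21.

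Oasl1, which lacks the enzymatic activity of the family and dampens translation of Irf7, read 7.46, 7.37, 7.47, 7.42 and 7.95 in sham and 8.18, 8.02, 8.02, 8.02 and 8.11 in CLP arrays. The CLP arrays lay within a narrow band (8.07 ± 0.07, SD, n = 5) above every sham array, and sham array 5 stood apart from the other shams. The value of 0.54 ± 0.11 did not pass (adjusted p = 0.0605 by limma), and passed without sham replicate 5 (0.64, adjusted p = 0.0294). Oasl2, which lies near it, read 8.58, 7.96, 8.57, 8.12 and 9.36 in sham and 9.91, 9.01, 9.04, 9.75 and 9.52 in CLP arrays, so that sham array 5 was above CLP arrays 2 and 3 (0.93 ± 0.26, adjusted p = 0.144). Oas1a read 8.12, 8.13, 8.28, 8.20 and 8.60 in sham and 8.95, 8.73, 8.35, 8.93 and 8.68 in CLP arrays, with CLP array 3 alone below sham array 5 (0.46 ± 0.13, adjusted p = 0.16).

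The other OAS synthases, Oas2 and Oas3, sit next to each other and gave 0.13 ± 0.14 and 0.15 ± 0.09, neither of which passed. Eif2ak2 (PKR), the kinase that halts translation on double-stranded RNA, gave 0.33 ± 0.37 and lay close to the floor, at which 2 of its 10 arrays stood. Adar, which edits adenosine in double-stranded RNA, gave 0.08 ± 0.21 (0.18 with its probe sets averaged), and Ifi203, a DNA-binding protein, 0.12 ± 0.11. For Zbp1, a sensor of Z-form nucleic acid that can start cell death, the brighter probe set gave 0.13 ± 0.10 (adjusted p = 0.797) while its other probe set gave 0.74 ± 0.16 with no overlap between the groups (adjusted p = 0.0659 by limma). Averaged, the probe sets of Zbp1 gave 0.43.

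In the ISG15 system and among the ubiquitin ligases, 5 of 6 tested genes had a higher mean in CLP arrays and none passed by limma (2 at an unadjusted p under 0.05). Dtx3l, a ligase that works as a dimer with Parp9, read 10.97, 10.85, 11.03, 10.86 and 11.36 in sham and 11.36, 11.23, 11.35, 11.29 and 11.37 in CLP arrays. Sham array 5 was level with the CLP arrays and the other 4 lay below all of them (0.31 ± 0.10, adjusted p = 0.244 by limma). Trim25, the ligase that assists the RNA sensor RIG-I, read 11.66, 11.40, 11.92, 11.57 and 11.80 in sham and 12.23, 12.09, 12.28, 11.58 and 12.37 in CLP arrays, where CLP array 4 alone lay within the sham range (0.44 ± 0.15, adjusted p = 0.257). Averaged, the probe sets of Trim25 gave 0.29. Usp18, which removes ISG15 and also shuts off the interferon receptor, gave 0.49 ± 0.24, Trim30a 0.29 ± 0.23 and Trim21, a cytosolic antibody receptor, 0.03 ± 0.10 (0.08 averaged).

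Herc6, the ligase that attaches ISG15 in mice, was the only gene of the 15 with several tested probe sets in which these went opposite ways. Its brightest probe set read 9.68, 9.60, 9.35, 9.95 and 9.05 in sham and 9.41, 9.44, 9.10, 9.78 and 9.90 in CLP arrays, fully overlapping. The 3 probe sets gave -0.0013 ± 0.19, -0.04 ± 0.15 and 0.18 ± 0.23, so no direction can be read for Herc6.

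The ADP-ribosyltransferases lie in the same neighbourhood as Dtx3l. Parp9 read 9.58, 9.30, 9.84, 9.54 and 10.26 in sham and 10.42, 10.60, 10.39, 10.15 and 10.39 in CLP arrays, with CLP array 4 alone below sham array 5 (0.68 ± 0.16, adjusted p = 0.0914 by limma). The value passed without sham replicate 5 (0.82, adjusted p = 0.0441). Parp14 read 10.47, 10.11, 10.59, 10.32 and 10.99 in sham and 10.88, 11.06, 10.90, 10.73 and 10.82 in CLP arrays, where sham array 5 was above all but CLP array 2 (0.38 ± 0.15, adjusted p = 0.324).

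Among the remaining genes Rtp4, a chaperone-like protein that also limits viral RNA, rose. It read 11.10, 10.63, 11.17, 10.78 and 11.52 in sham and 12.05, 11.70, 11.71, 11.84 and 11.97 in CLP arrays, with no overlap (0.81 ± 0.16, adjusted p = 0.0466 by limma). Without any single array other than sham replicate 5 the call was lost, at values between 0.71 and 0.85. Daxx, a histone chaperone and regulator of cell death, read 10.80, 10.61, 10.82, 10.88 and 11.06 in sham and 11.07, 11.08, 11.06, 11.31 and 11.42 in CLP arrays. Its groups were separated by a very small gap, since sham array 5 lay just under CLP array 3 (0.35 ± 0.11, adjusted p = 0.183). Xaf1, which counters the caspase inhibitor XIAP, read 8.44, 8.08, 8.56, 8.22 and 8.88 in sham and 8.83, 8.79, 8.77, 8.78 and 8.88 in CLP arrays, with sham array 5 highest of all (0.37 ± 0.14, adjusted p = 0.281). Ifi35 gave 0.33 ± 0.30, Ifi27l2a 0.28 ± 0.19 and Sp100, a nuclear body protein, -0.07 ± 0.11. None of these 3 passed. The dimmest tested probe set of Ifi35 gave 0.02. With their probe sets averaged, Ifi35 gave 0.22, Xaf1 0.26, Ddx60 0.41, Dtx3l 0.43, Parp14 0.30, Trim30a 0.26, Rsad2 1.07 and Sp100 -0.06.

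**Figure D2:**
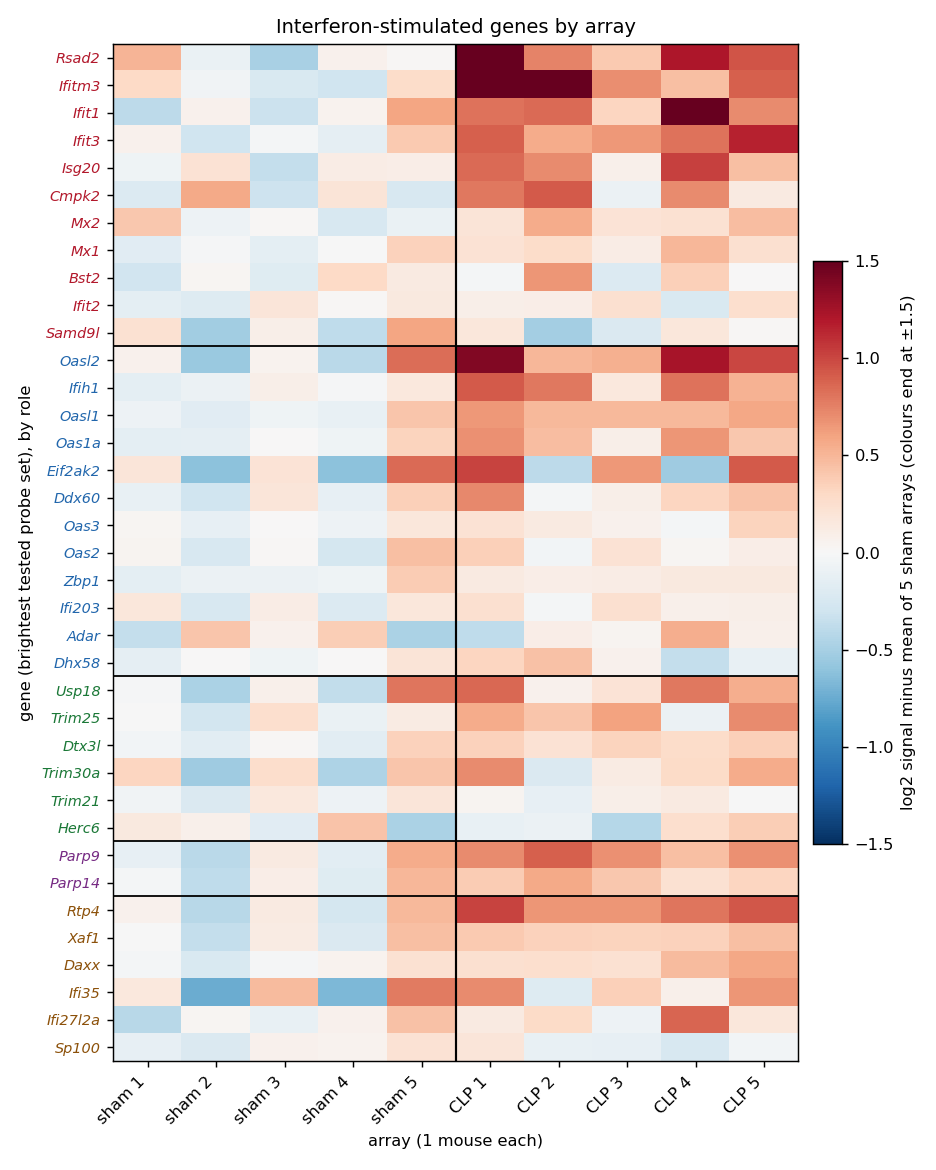
Log2 signal of the 37 tested genes (rows, grouped by role) on each of the 10 arrays (columns), as the difference from the mean of the 5 sham arrays; colours end at ±1.5. The sham 5 column is warmer than the other sham columns, and 33 of the 37 genes lie above 0 there; the other 4 are Adar, Herc6, Cmpk2 and Mx2.

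The genes tended to be high and low on the same arrays, though not all did so. The mean over the 37 genes was 9.17, 9.01, 9.20, 9.08 and 9.49 in sham arrays 1 to 5 and 9.74, 9.51, 9.42, 9.60 and 9.62 in CLP arrays 1 to 5. Sham array 5 was above CLP array 3 and below the other CLP arrays, and the group means were 9.19 ± 0.18 and 9.58 ± 0.12 (SD, n = 5). On sham array 5, 33 of the 37 genes lay above their sham mean, against 8 to 23 on the other sham arrays and 27 to 34 on the CLP arrays. Relative to that sham mean, the median gene stood at 0.34 on sham array 5, and between 0.21 and 0.42 on the CLP arrays. Over the other tested genes the median on any array lay between -0.05 and 0.03.

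**Figure D3:**
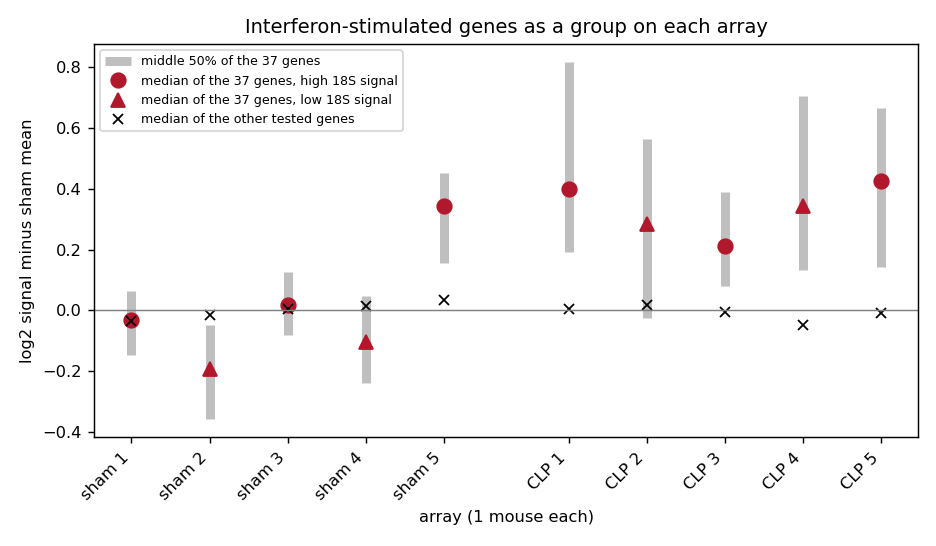
Median of the 37 genes on each array (red symbols) and their middle 50% (grey bars), as log2 signal minus the sham mean, with the median of the other tested genes as crosses; circles are arrays with high 18S ribosomal RNA signal and triangles those with low. Sham array 5 sits at 0.34, among the CLP arrays at 0.21 to 0.42.

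Across the 10 arrays the median Pearson correlation between pairs of these genes was 0.51, and 566 of the 666 pairs were positive. With the group means subtracted it was 0.35, and 489 of the 666 pairs were positive. Without sham replicate 5 this median within groups fell to 0.22. Over an evenly spaced sample of 3269 tested genes the median was 0.00516 across arrays and 0.00904 within groups. These correlations share the arrays and their scaling and are given as a description. Within groups the closest to the mean of the other members were Oasl2 (0.95), Usp18 (0.94), Rtp4 (0.94) and Oasl1 (0.91), while Adar (-0.71), Herc6 (-0.36) and Cmpk2 (-0.25) ran opposite.

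Among 13036 tested genes outside the list, Gbp2, an interferon-inducible GTPase, followed the members' mean most closely over the 10 arrays (Pearson r = 0.97), and Irf7, the transcription factor that amplifies type I interferon production, came next (0.95). They were followed by Fkbp5, a glucocorticoid-induced co-chaperone (0.95), and Igtp (0.93) was the fifth. The remaining 6 of the 10 closest were 1700120B22Rik, Gata5, 9030619P08Rik, Akap12, Pmepa1 and Cplx1, between 0.92 and 0.94. This ranking takes in the difference between CLP and sham arrays and was not repeated within groups. Irf7 read between 6.32 and 7.65 in sham and 7.68, 7.53, 7.37, 7.35 and 7.51 in CLP arrays, again with sham array 5, the highest sham, level with the CLP arrays, and its value of 0.69 ± 0.22 did not pass (adjusted p = 0.215 by limma).

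Of 75 tested genes of the further interferon lists 2 rose and 1 fell, where 0.199% of all tested genes rose and 0.551% fell. Their median log2 fold change was 0.08. The receptor subunits Ifnar1 and Ifnar2 gave -0.21 ± 0.19 and -0.21 ± 0.17, and the kinases Jak1 and Tyk2 0.01 ± 0.12 and -0.41 ± 0.23, none of which passed. Of the ISGF3 factors Stat2 gave 0.21 ± 0.20 and Irf9 0.11 ± 0.11, neither of which passed. Ifna1, the tested type I interferon gene, whose probes may also detect its near-identical relatives, gave 0.10 at a mean of 6.68 in sham and 6.78 in CLP arrays (adjusted p = 0.797 by limma). The interferon genes Ifnb1, Ifng, Ifna2, Ifna4 and Ifna5 and the brake Socs1 lay below the filter on dim probe sets. Ifngr1, a chain of the interferon gamma receptor, gave 0.85 ± 0.19 with no overlap (adjusted p = 0.0676 by limma). Of 10 tested genes of sensing and its adaptors none passed by limma (1 at an unadjusted p under 0.05).

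The genes that passed were Iigp1, Socs3 and Parp11. Iigp1, an interferon gamma-induced GTPase of cell-autonomous immunity, rose by 2.04-fold (adjusted p = 0.0489 by limma), and all 15 tested genes on the interferon gamma list averaged higher after CLP (median 0.13). Socs3, a feedback inhibitor of cytokine signalling, rose by 1.46-fold (adjusted p = 0.0489). Parp11, a mono-ADP-ribosyltransferase, fell from 9.47 ± 0.14 in sham to 8.68 ± 0.35 in CLP arrays (SD, n = 5; adjusted p = 0.0475), with every CLP array below every sham array, as in 2.28% of all tested genes. Parp12, a relative of it, gave 0.50 ± 0.11 in the other direction and did not pass (adjusted p = 0.0805).

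The arrays also fell into classes by the signal of 18S ribosomal RNA. The middle probe set of 18S read between 194.3 and 268.4 on CLP arrays 2 and 4 and sham arrays 2 and 4, and between 3134 and 5178 on the other 6. What gave rise to the classes is not given in the sources used here, and each holds both groups. Among the 36 genes with a value, 33 had a higher mean in CLP arrays within the high class (3 against 3, median 0.22) and 33 of 36 within the low class (2 against 2, median 0.49). Of 35 genes with a value in both classes 30 were higher in both, where 31.3% of all genes were. The signed value was higher in the low class for 28 of the 37 genes and for 6541 of all 13073 tested genes. Samd9l is among the 28, at -0.31 in the high and 0.28 in the low class. None of these class differences passed when tested as an interaction by limma (lowest adjusted p = 0.9995, and 0 at an unadjusted p under 0.05).

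With the class as a block, 7 of the 37 genes rose in place of 2, and 0.673% of all tested genes did. The added genes were Ifih1 (0.64 ± 0.14, adjusted p = 0.0383), Oasl1 (0.54 ± 0.10, adjusted p = 0.0272), Parp9 (0.68 ± 0.15, adjusted p = 0.0375), Ifitm3 (1.08 ± 0.24, adjusted p = 0.0431) and Isg20 (0.62 ± 0.14, adjusted p = 0.0483), all by limma. Within the high class alone Ifit3 gave 0.75 and Rtp4 0.64, and within the low class 0.90 and 1.07. With 3 against 3 or 2 against 2 arrays no gene at all passed by limma, among 12952 and 12920 tested. Of the 36 members with a value in each class, 13 and 20 were higher at an unadjusted p under 0.05. The matching share of all genes was not counted in these fits.

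**Figure D4:**
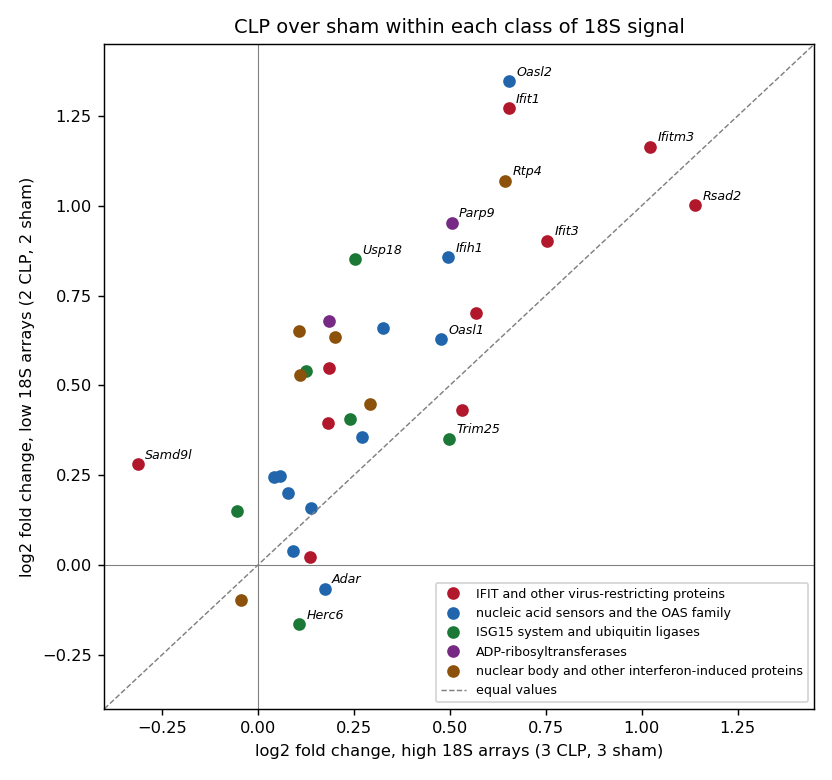
Log2 fold change of CLP over sham for the 35 genes with a value in both classes, from the 6 arrays with high 18S signal (horizontal axis) and the 4 with low 18S signal (vertical axis); the dashed line marks equal values. Most genes lie above the line, and 30 of 35 lie above 0 on both axes.

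The summed markers of T cells and of NK cells differed between the groups without overlap, and those of the other cell types overlapped. The part of these cells in the results was not tested. Cd4 and Cd3e were far above the floor of 6.13, with means of 10.83 ± 0.29 and 11.47 ± 0.12 (SD, n = 5) in sham arrays. All 10 tested T cell markers had a lower mean in CLP arrays (median -0.30, none passed by limma), and their summed intensity ran from 19902 to 22940 in CLP and from 23011 to 30641 in sham arrays, with no overlap. NK markers summed to 2457 to 2907 in CLP and 3055 to 3806 in sham arrays. Of the 7 listed NK markers 4 were tested, of which 1 had a higher mean in CLP arrays and none passed by limma. Ncr1 was at the floor on every array. Erythroid markers (6 of 7 tested higher, median 0.27) ran from 2869 to 7764 in CLP and from 2196 to 4015 in sham arrays, while Hba-a1 was at the floor on every array.

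Neutrophil markers ran from 2765 to 15507 in CLP and from 4563 to 12393 in sham arrays (3 of 8 tested higher). Monocyte and macrophage markers ran from 3609 to 4637 and from 2946 to 4398 (5 of 6 higher, median 0.03), and plasmacytoid dendritic cell markers, which include Bst2 and Irf8, from 2012 to 2515 and from 2173 to 2252 (6 of 7 higher, median 0.13). Conventional dendritic cell markers ran from 1004 to 1273 and from 919.7 to 1113, with Xcr1 at the floor on every array, and B cell markers from 2849 to 5637 and from 2863 to 4769. Of all these markers of other cells 1 passed, Ccr9, which fell; it is on the plasmacytoid list and is also a homing receptor of T cells.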

How the data were processed

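RNA of CD4+ splenocytes was labelled after amplification of small samples, per the labels' protocols, and hybridised to Affymetrix arrays, 1 per mouse. The authors deposited an intensity on a linear scale for every probe set; their software and scaling steps are not stated in those labels, and array medians lay between 127.6 and 142.4. Symbols came from a platform annotation table and were checked by Entrez identifier against RefSeq (GRCm38.p6). Of the probe sets that were not controls, 34945 had 1 symbol, 932 several and 9160 were unnamed here. The labels number the CLP mice as biological replicates. Every sham title reads biological replicate 1, followed by a suffix that differs between the sham arrays. That suffix was taken as the number of the sham mouse, and each sham array was treated as a separate mouse. The titles alone do not settle this reading.

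Arrays were brought to the same median, a floor was set at the 25th percentile of all values (log2 of 6.13), and logarithms to base 2 were taken. Probe sets with a mean below the 40th percentile and controls were left out, which left 27022. The comparison used limma 3.58.1 (R 4.3.3), with p-values adjusted by Benjamini-Hochberg over all 27022, with a threshold of 0.05. A gene is its brightest tested probe set. The members and lists were chosen with earlier results of these data known, and the class of 18S signal, divided at an intensity of 1000, came from those results. Per-array values were given for genes past the threshold, then for those of lowest p in each role and overall up to 20 genes, and for genes whose probe sets disagree; Ifit2, Zbp1 and other single values were added after they were seen. The fit was tested on simulated data in which probe sets varied independently and no 18S class was drawn. That test therefore does not cover the classes or the correlation between genes. The 23 alternatives were other scalings, floors, filters and variance models, averaged probe sets, blocks by replicate number and 18S class, each class alone, and each array left out. The interaction with class was added after the data were seen. Figures were drawn with matplotlib 3.10.9.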

Additional observations from a re-analysis of the deposited data

Results flagged for a closer look

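In 2 of the 74 groups of 5 arrays examined for the 37 genes, a single array stood apart from the other 4, and both were sham array 5. Chance marks about 1 in 20 such groups. For Oasl1 that array read 7.95 on the log2 scale, where the next highest sham array read 7.47. For Zbp1, by its brighter probe set, it read 7.58, where the next highest read 7.14 and the CLP arrays averaged 7.33 ± 0.02 (SD, n = 5).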

How the results depend on the processing

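The median log2 fold change of the genes (0.33) stayed between 0.22 and 0.49 over 23 alternatives, reaching 0.49 in the low 18S class alone, and from 0.28 to 0.41 with single arrays left out. The count that rose, 2, was 4 under quantile normalization, 3 with probe sets averaged, 5 with array weights, 7 with the 18S class as a block, and 0 with no filter or in either class alone (18, 13 and 20 at an unadjusted p under 0.05 by limma). With single arrays left out it ran from 0 to 4, and at an unadjusted p under 0.05 from 15 to 20. None of the 37 genes fell by limma in any alternative. The count over all tested genes moved too. It was 26 in the main fit, 37 under quantile normalization, 28 with probe sets averaged, 80 with array weights and 88 with the class as a block. It was 0 with no filter or in either class alone, and ran from 0 to 69 with single arrays left out. The other interferon genes past the threshold in either direction, 3, became 1 with probe sets averaged and with a trended robust prior. They were 6 with array weights, 6 with the class as a block, and 0 with no filter or in either class alone. With no filter and in each class alone, 18, 14 and 14 had an unadjusted p under 0.05 by limma. The share of all genes was not counted there. With single arrays left out the count past the threshold ran from 0 to 4. Over all tested genes, 72 fell in the main fit, 74 with probe sets averaged and 51 with the trended robust prior. With array weights 167 fell, and 267 with the class as a block. Agreement within groups (0.35) was 0.56 in the high class alone, 0.28 under quantile normalization; with single arrays left out it lay between 0.22 (sham replicate 5) and 0.45 (CLP replicate 4). Herc6 turned positive under quantile normalization (0.036), no scaling (0.0085), averaging (0.046) and in the high class (0.11), and ran from -0.12 to 0.11 with single arrays left out.

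With replicate number as a block, 4 of the genes rose (Ifit3, Rtp4, Rsad2 and Ifitm3) and 1 of the other interferon genes passed. Of all 13073 tested genes 44 rose and 75 fell with this block, and 26 rose and 72 fell without it. The labels do not tie same-numbered mice together. Deviations of the 5 pairs correlated between 0.06 and 0.58, not all over the 0.1 set for pairing, and 1 of 5 CLP arrays correlated best with its own number. Same-numbered arrays do share their 18S class, so a block by number also takes in the class.

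The arrays limit what can be shown: of the 10 fits with an array left out, Ifit3 passed in 3 and Rtp4 in 1. Signals of Eif2ak2, Bst2, Mx1 and Ifna1 lay near the floor, so their folds are less certain. The same holds for Irf7 and the dimmer probe set of Zbp1, with sham means of 6.80 and 6.76.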
